A study of Mus musculus with 18 samples.

Results

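Prame-like genes are a large mouse gene family related to PRAME, a protein of leucine-rich repeats first described as a melanoma antigen. The results below concern 10 of the 24028 genes in the count table: Pramef6, Pramef25, BC080695, Gm12794, Gm13078, Gm13083, Gm13119, A430089I19Rik, AA792892 and BC061212. They were taken by symbol from a list selected on the responses of these libraries to mouse Dux and human DUX4, so their levels after induction of mouse Dux or human DUX4 are given as a description, with no test. RefSeq names 9 of the 10 as Pramel genes. The exception is AA792892, whose coding sequence was also the shortest of the set, at 837 bases. Its coding identity to the other members was 38.4% to 47.6%, counted over the whole alignment with gaps, so its shorter length lowers these values. A further 31 genes of the table belong to the family by name or RefSeq synonym.

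The libraries were made from polyadenylated RNA of C2C12, a mouse myoblast line, with 3 separate cultures in each of 6 groups. The 3 clonal lines each held 1 doxycycline-inducible transgene: codon-altered mouse Dux, codon-altered human DUX4, or the control gene firefly luciferase. Induced cultures of each line received 2 µg/ml doxycycline for 36 h, uninduced cultures of the same line were harvested at the same time without it, and all cultures were grown in puromycin. Each transgene was measured in a single clone, so line, clone and transgene cannot be told apart, and the amount of each factor made was not analysed here.

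PRAME proteins can serve as substrate receptors of cullin-2 ubiquitin ligases, complexes that mark other proteins for degradation, and human PRAME can repress retinoic acid receptor signalling. In mouse the family has expanded into clusters of near-identical copies, many of which are used in germ cells and in the early embryo. Both Dux and DUX4 carry a pair of homeodomains, which bind DNA, and switch on genes of the cleavage-stage embryo, among them Prame-family genes.

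By sequence and place the members fell into a first and a second group, a pair and other genes. Positions are from GRCm38 (mm10), with gene spans of GENCODE vM21. Identity is matching bases over the length of the pairwise alignment, gaps included, so unlike lengths lower it. The first group is BC080695, Gm13119 and Pramef25 on chromosome 4 (143551700 to 143573798, 144357942 to 144364419 and 143948580 to 143951016), with 94.3% to 96.7% of coding bases in common. The second is Gm13083, Gm13078 and Pramef6 (143615003 to 143618595, 143719455 to 143729158 and 143894237 to 143900380), with 89.8% to 93.5%. These 6 genes lie in 1 cluster of 24 family genes that spans 1014 kb. A further pair is A430089I19Rik and BC061212 on chromosome 5 (94302519 to 94306796 and 94066151 to 94070545), with 82.8% on coding lengths of 1224 and 1446 bases. AA792892 lies near them (94339749 to 94385079). Gm12794 lies outside the cluster on chromosome 4 (101940407 to 101943183), 96.4 kb after the family gene B020004J07Rik, and 44.7% of the 50-base words of its transcript occur in the family gene Gm12800.

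Windows at the annotated gene starts are shown because genes with near-identical coding sequences did not always have like ones. The RefSeq windows run from 250 bases before to 50 bases after each gene start in GRCm38.p6 and exist for 9 members. The 5 shown are those of the first sequence group, BC080695 (chr4:143567217-143567516, plus strand), Gm13119 (chr4:144357714-144358013, plus strand) and Pramef25 (chr4:143950967-143951266, minus strand), and 1 each of the second group and of the chromosome 5 pair, Pramef6 (chr4:143900331-143900630, minus strand) and A430089I19Rik (chr5:94306747-94307046, minus strand). Capitals mark TGATTGAAT and GATTNAATC on either strand, which share bases with each other where they overlap, and TATAAA on either strand.
BC080695: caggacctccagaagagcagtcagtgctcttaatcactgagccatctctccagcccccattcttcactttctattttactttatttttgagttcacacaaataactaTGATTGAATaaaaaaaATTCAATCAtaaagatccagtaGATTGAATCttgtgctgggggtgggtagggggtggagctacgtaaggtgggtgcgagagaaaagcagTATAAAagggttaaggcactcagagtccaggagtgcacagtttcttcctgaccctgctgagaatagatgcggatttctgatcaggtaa
Gm13119: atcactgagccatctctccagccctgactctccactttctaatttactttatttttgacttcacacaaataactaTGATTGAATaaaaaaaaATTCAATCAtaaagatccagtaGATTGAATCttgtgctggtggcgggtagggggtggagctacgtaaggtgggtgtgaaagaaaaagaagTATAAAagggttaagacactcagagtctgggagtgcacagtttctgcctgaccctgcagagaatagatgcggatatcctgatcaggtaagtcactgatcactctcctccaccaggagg
Pramef25: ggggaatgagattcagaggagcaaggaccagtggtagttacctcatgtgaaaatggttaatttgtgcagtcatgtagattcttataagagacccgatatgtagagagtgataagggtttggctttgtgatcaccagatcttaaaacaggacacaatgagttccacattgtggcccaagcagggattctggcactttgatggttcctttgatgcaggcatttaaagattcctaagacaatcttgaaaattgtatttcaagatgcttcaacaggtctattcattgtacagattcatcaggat
Pramef6: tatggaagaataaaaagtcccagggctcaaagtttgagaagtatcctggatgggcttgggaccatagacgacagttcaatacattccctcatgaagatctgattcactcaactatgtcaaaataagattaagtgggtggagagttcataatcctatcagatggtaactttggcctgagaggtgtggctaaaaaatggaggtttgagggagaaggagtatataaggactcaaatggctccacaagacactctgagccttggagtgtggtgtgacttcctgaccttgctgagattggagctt
A430089I19Rik: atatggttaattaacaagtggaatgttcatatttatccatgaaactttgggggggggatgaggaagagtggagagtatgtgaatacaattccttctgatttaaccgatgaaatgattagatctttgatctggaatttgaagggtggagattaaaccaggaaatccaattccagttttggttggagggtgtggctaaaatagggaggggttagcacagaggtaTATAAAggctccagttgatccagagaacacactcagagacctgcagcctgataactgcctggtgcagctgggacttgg

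The windows of BC080695 and Gm13119 were 75.6% identical, with an unbroken run of 47 bases. That of Pramef25 was 46.6% and 44.1% identical to them, where the lowest value between member windows was 42.1%. The windows depend on the annotated start. The Gm12794 transcript and its coding sequence were both 1452 bases long, so its annotated start is that of the coding sequence. The Pramef25 transcript had 3 exons and those of BC080695 and Gm13119 had 4, and whether their starts correspond was not tested. The window of BC080695 was identical to that of Gm13057, a family gene of the same cluster that is not a member. The windows of Pramef6 and Gm13078 were 84.4% identical, and those of A430089I19Rik and BC061212 98.0%. That of Gm13083, also of the second group, was 46.8% identical to that of Pramef6 and 47.0% to that of Gm13078. TGATTGAAT occurred in the windows of BC080695 and Gm13119 and in 0.183% of all 32851 windows, and GATTNAATC in the same 2 members and in 0.268%. These 2 motifs were chosen after the windows had been seen. TGATTGAAT lay on both strands, beside GATTNAATC, in 5 windows of the genome, those of Gm13040, Gm13043, Gm13057, BC080695 (RefSeq Pramel20) and Gm13119 (RefSeq Pramel31). A longer motif modelled on the human DUX4 site and one modelled on the mouse Dux site, searched on both strands, occurred in 0 of the 9 member windows and in 1.03% and 0.0335% of all windows, which says only that these letters are not in the windows. TATAAA was found in 4 members (BC080695, Gm13119, A430089I19Rik and BC061212) and in 13.6% of all windows, and AATCA in 8 of 9 and in 37.0%.

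**Figure D1:**
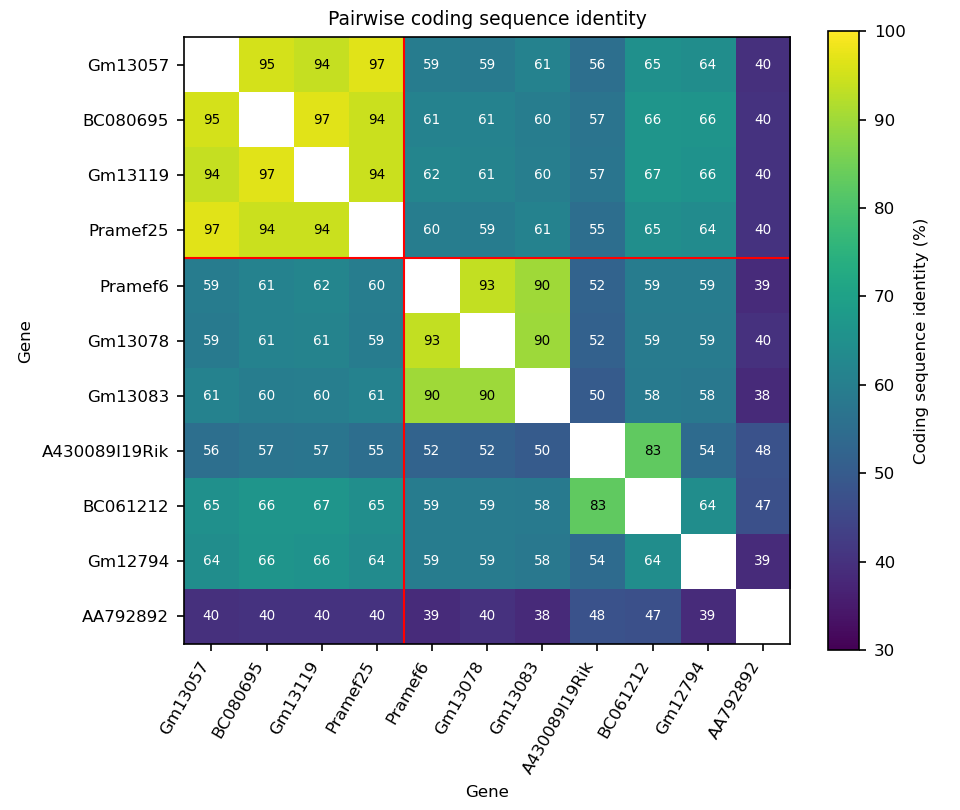
Pairwise identity of coding sequences in percent (colour scale and numbers, rounded) for the 10 members and Gm13057, with 1 gene per row and column; red lines part the 3 genes of the first sequence group and Gm13057 from the others. Identity among these 4 genes was 93.8% or more, and a second block holds Pramef6, Gm13078 and Gm13083.

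The libraries held 11010586 to 17179642 counts each. Induced mouse Dux library 1 stood apart from libraries 2 and 3 of its group (chi-square per degree of freedom 32.1 and 34.3 against 2.08 between the latter), so fold changes without it are given below. Uninduced mouse Dux library 1 also stood apart, by less (4.96 and 5.04 against 1.25). Myod1, Des and Cdh15, which mark myoblasts, were present in all 6 groups (means of 3.67 to 195, 76.3 to 1282 and 43.5 to 534 CPM), with Myod1 lowest in induced human DUX4 libraries. Of the other myoblast markers, Pax7 was at most 0.161 CPM outside the mouse Dux line, Myf5 at most 0.258 CPM within it, and Myog at most 2.32 CPM outside the luciferase line. Pou5f1, which defines pluripotent cells, had no count in any library. Nanog reached at most 1.10 CPM, Sox2 was counted only in induced mouse Dux libraries (1.98 CPM), and the neuron marker Tubb3 had group means of 7.19 to 33.9 CPM. The markers of germ cells, blood, epithelium and endothelium (Dazl, Ddx4, Ptprc, Epcam and Pecam1) had group means of at most 0.534 CPM.

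With mouse Dux all 10 members went from near 0 to between 74.0 and 6872 CPM (counts scaled by TMM to a common library total). Summed, they stood at 5.01, 3.02 and 4.84 CPM in the uninduced libraries and at 24635, 21279 and 22688 CPM in the induced ones. That is 2.06% ± 0.140 of all counts in induced cells (SD, n = 3). In bulk RNA a higher level per cell cannot be told apart from more cells that express a gene. All 10 passed the rule for a strong rise (edgeR adjusted p under 0.05 and a log2 fold change of at least 2), as did 6.84% of the 13602 genes tested. Since the list was drawn from such genes, nothing is read from that share.

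In induced mouse Dux libraries BC080695, Pramef25 and Gm13119, the first sequence group, ranked 13, 20 and 62 among all genes of the table by CPM, and outside it A430089I19Rik, Gm12794 and BC061212 ranked 11, 24 and 43. BC080695 had 1.19, 0.870 and 0.764 CPM uninduced and 5069, 4192 and 4562 CPM induced. Its log2 fold change was 12.28 (SE 0.191). Pramef25 went from 0.933, 0.580 and 0.701 CPM to 3663, 3099 and 3306 CPM, a log2 fold change of 12.18. Gm13119 went from 0.170, 0.232 and 0.319 CPM to 1492, 1272 and 1353 CPM, a log2 fold change of 12.40. In each of the 3 genes every induced library lay above every uninduced one by more than 3 orders of magnitude, and library 1 was the highest of the induced 3.

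The second sequence group was induced to lower levels, from a handful of reads. Gm13083 had 1 count over the 3 uninduced libraries and 842, 768 and 826 CPM when induced, a ratio of 36397 with a 95% interval of 6532 to 1437630. Gm13078 had no uninduced count and reached 569, 471 and 498 CPM, at least 7681-fold higher against a floor of 3 counts over the group. Pramef6 had 1 uninduced count and reached 436, 441 and 466 CPM, a ratio of 20002 (3590 to 790080). Intervals and floors here cover counting error only.

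On chromosome 5, A430089I19Rik was the most abundant member. Its level was 0.933, 0.696 and 1.47 CPM uninduced and 7637, 6286 and 6693 CPM induced, with a log2 fold change of 12.69 (SE 0.210). BC061212, its partner in sequence, went from 0.339, 0.348 and 0.637 CPM to 2003, 1706 and 1770 CPM (11.97). AA792892 was the least abundant, with 1 uninduced count and 81.6, 67.6 and 72.6 CPM induced, a ratio of 3322 (596 to 131268). Gm12794 went from 1.36, 0.290 and 0.828 CPM to 2842, 2977 and 3142 CPM (11.92), and in this gene library 1 was the lowest of the induced 3. Without induced library 1 the fitted log2 fold changes of the members with more than 3 uninduced counts were 12.20 for BC080695, 12.10 for Pramef25, 12.32 for Gm13119, 12.60 for A430089I19Rik, 11.89 for BC061212 and 11.95 for Gm12794.

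Per kilobase of transcript, the order of the induced levels was A430089I19Rik (3719 ± 375 CPM per kb), BC080695 (2199 ± 210), Gm12794 (2057 ± 104), Pramef25 (1993 ± 169), BC061212 (963 ± 82.4), Gm13119 (655 ± 53.1), Gm13083 (330 ± 15.8), Pramef6 (301 ± 10.7), Gm13078 (243 ± 24.1) and AA792892 (37.4 ± 3.57). Neighbours among BC080695, Gm12794 and Pramef25 lay within 1 SD of each other, while the steps from A430089I19Rik to BC080695, from Pramef25 to BC061212 and from Gm13119 to Gm13083 exceeded the SDs several times over. Reads of near-identical copies limit this order. Of the 50-base words of each transcript, 100% in BC061212 and 97.1% in A430089I19Rik occurred in another gene as well, against 63.5% in Pramef25, 55.1% in BC080695 and 14.8% to 47.4% in the other 6 members. The sources used here do not say how such reads were counted, and the split between copies is uncertain.

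**Figure D2:**
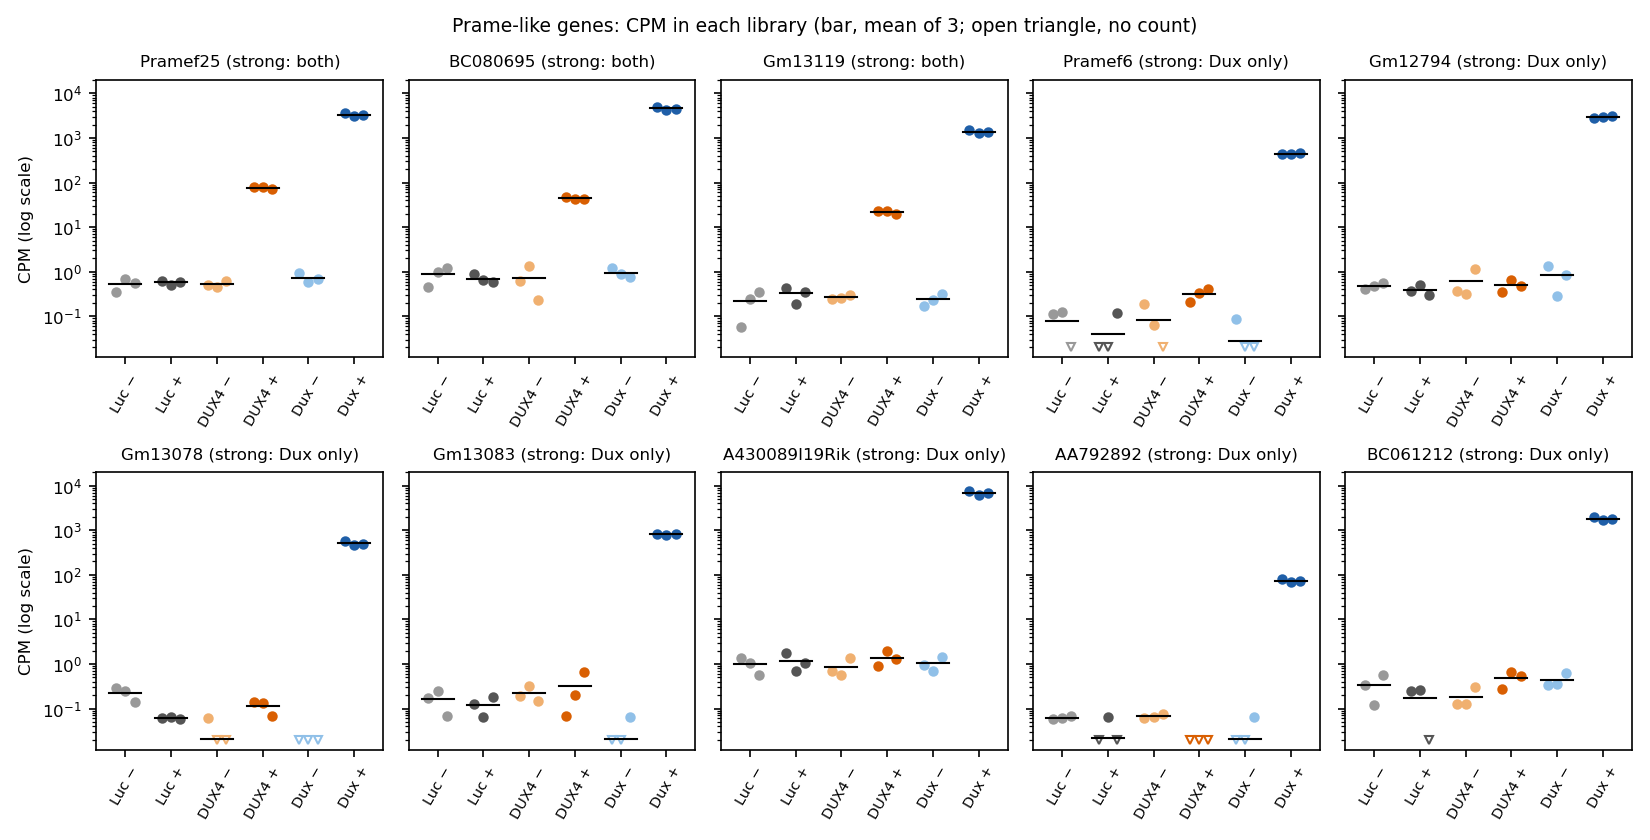
CPM of each member in each library on a log scale, for the luciferase (Luc), human DUX4 and mouse Dux lines without (−) and with (+) doxycycline; points are libraries, horizontal bars are means of 3, and open triangles are libraries with no count. Pramef25, BC080695 and Gm13119 lie above 20 CPM in the induced libraries of both factor lines, and the other 7 members lie below 2 CPM in every human DUX4 library.

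With human DUX4 only the first sequence group reached more than 2 CPM. Pramef25 had 0.500, 0.449 and 0.603 CPM uninduced and 80.4, 78.2 and 73.4 CPM induced, a log2 fold change of 7.21 (SE 0.128). BC080695 went from 0.625, 1.35 and 0.226 CPM to 46.7, 41.9 and 43.3 CPM (5.85, SE 0.209). Gm13119 went from 0.250, 0.256 and 0.302 CPM to 22.9, 22.6 and 20.2 CPM (6.31, SE 0.187). Induced and uninduced libraries did not overlap in any of the 3, and the lowest induced value was 20.2 CPM. These 3 members passed the rule for a strong rise, as did 4.36% of the genes tested, and 1.36% of genes passed it with both factors. The list was selected on these responses, so nothing is read from these shares. The induced means were 2.30% of the induced mouse Dux mean for Pramef25, 0.954% for BC080695 and 1.60% for Gm13119.

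The other 7 members stayed below 2 CPM in every human DUX4 library. A430089I19Rik, the most abundant member with mouse Dux, had 0.688, 0.577 and 1.36 CPM uninduced and 0.904, 1.91 and 1.27 CPM induced (log2 fold change 0.69, SE 0.409), and the ranges overlapped. Gm12794 (26 counts uninduced and 22 induced) and Gm13083 (10 and 14) overlapped as well. AA792892 had 3 counts uninduced and 0 induced, too few for a fold. The members nearest to the fold threshold were Gm13078 at 1.98 (1 count uninduced and 5 induced, a ratio of 5.04 with an interval of 0.564 to 239), Pramef6 at 1.73 (4 and 14 counts) and BC061212 at 1.43 (8 and 22 counts), while the lowest member above it was BC080695 at 5.85. By the adjusted p alone 5 of 10 members were called higher with human DUX4, against 34.4% of all genes. Nothing is read from that count. They were the 3 above and, short of the fold, Pramef6 and BC061212. When the human DUX4 groups were fitted alone 4 members passed the filter on low counts, the 3 above and A430089I19Rik, and 6 did not. Pramef6 and BC061212 were among those that failed it, so nothing is read from their calls. The calls of these 2 were each lost in 4 of 6 fits that left out 1 library and with a replicate block, and that of BC061212 also with library size alone. Pramef6 and Gm13078 crossed the threshold when uninduced human DUX4 library 1, which held 3 of the 4 Pramef6 counts and the only Gm13078 count, was left out (2.91 and 3.87). The number of members strongly raised then became 5. Their induced means, 0.313 and 0.113 CPM, were still at most 0.0700% of the induced mouse Dux level.

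**Figure D3:**
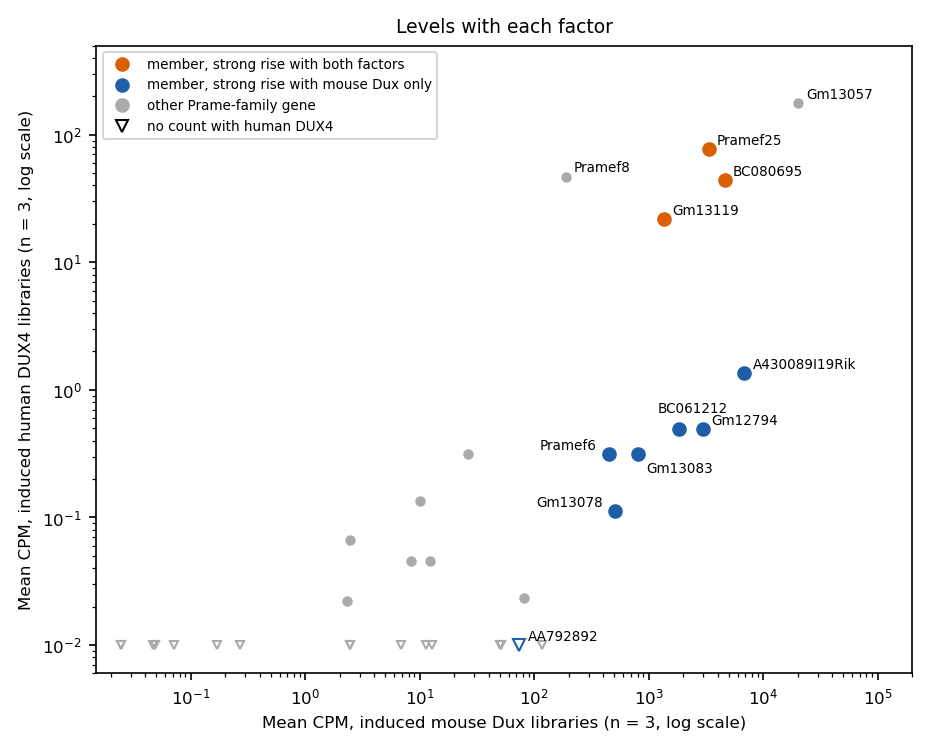
Mean CPM in induced human DUX4 libraries (vertical) against induced mouse Dux libraries (horizontal), both on log scales with n = 3, for members and other Prame-family genes counted with mouse Dux; open triangles had no count with human DUX4 and are drawn at the bottom. The 3 members strongly raised by both factors lie with Gm13057 and Pramef8 above 20 CPM on the vertical axis, and the other 7 lie below 2 CPM.

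The members strongly raised by both factors were BC080695, Gm13119 and Pramef25, the first sequence group. The other 7 were strongly raised by mouse Dux only. Of these, Pramef6 and BC061212 had a call with human DUX4 under the fold threshold. Both failed the filter on low counts when the human DUX4 groups were fitted alone, so no rise is read from it. Between the classes coding identity was 40.3% to 66.6% over 21 pairs (median 60.9%). Within the class strongly raised by both it was 94.3% to 96.7% over 3 pairs. Within the class strongly raised by mouse Dux only it was 38.4% to 93.5% over 21 pairs (median 58.0%), so low identity was not particular to pairs between the classes. Place and level did not part the classes. Within the cluster, Gm13083, Gm13078 and Pramef6 lie between BC080695 and Pramef25, and Gm13119 starts 407 kb after the end of Pramef25. With mouse Dux, A430089I19Rik was above and Gm13083 below all 3 members strongly raised by both. Windows at the annotated starts were 44.1% to 75.6% identical within the class strongly raised by both and 42.1% to 98.0% within the other class. Between the classes they were 42.9% to 50.4% identical over 18 pairs. The lowest values within the classes were those of Pramef25 with Gm13119 and of Gm12794 with Gm13083. Whether the annotated starts of these pairs correspond was not tested, so these values are not a measure of promoter divergence. Uninduced levels of Pramef25, BC080695 and Gm13119 (0.216 to 0.941 CPM over the 3 lines) overlapped those of A430089I19Rik, Gm12794 and BC061212 (0.185 to 1.03 CPM). Those of Pramef6, Gm13078, Gm13083 and AA792892 were mostly lower, at 0 to 0.223 CPM. The classes were set by these same responses, so none of this was tested.

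Gm13057, the family gene 9.23 kb before BC080695, behaved like the first sequence group. Its coding sequence was 96.9% identical to Pramef25, 95.4% to BC080695 and 93.8% to Gm13119. It had 5.35, 3.13 and 4.01 CPM in uninduced mouse Dux libraries and 21819, 18535 and 19747 CPM in induced ones, where it ranked 2 among all genes. With human DUX4 it went from 2.06, 4.61 and 1.81 CPM to 183, 171 and 180 CPM. In edgeR's quasi-likelihood test its log2 fold changes were 12.27 (adjusted p = 7.48e-19) and 5.95 (adjusted p = 9.41e-15), each with 3 of 3 induced libraries above all uninduced ones, and they differed by 6.32 (interaction, SE 0.404, adjusted p = 6.06e-11), where 32.9% of all genes tested were called higher in that difference. All 50-base words of its transcript occur in another gene, Gm13040, and the GENCODE spans of Gm13057 and BC080695 overlap on the same strand.

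The counts of the first sequence group, set against those of Gm13057, stood in different ratios with mouse Dux and human DUX4. All 50-base words of the Gm13057 transcript occur in Gm13040, and 49.4% of those of BC080695 occur in Gm13057. How such reads were split is not known, which limits these ratios as values of single genes. Pramef25 stood at 16.8%, 16.7% and 16.7% of the Gm13057 count in the induced mouse Dux libraries and at 44.0%, 45.8% and 40.9% in the induced human DUX4 libraries. Gm13119 stood at 6.84%, 6.86% and 6.85% with mouse Dux and at 12.5%, 13.2% and 11.3% with human DUX4. BC080695 stood at 23.2%, 22.6% and 23.1% with mouse Dux and at 25.6%, 24.5% and 24.1% with human DUX4. The libraries of the factors did not overlap in any of the 3 ratios, and the ratio of means was largest for Pramef25. In the 4 groups without an induced factor, pooled over libraries, Pramef25 stood at 13.7% to 17.8%, BC080695 at 17.9% to 26.4% and Gm13119 at 5.46% to 9.30%, on 10 to 42 counts per gene and group.

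**Figure D4:**
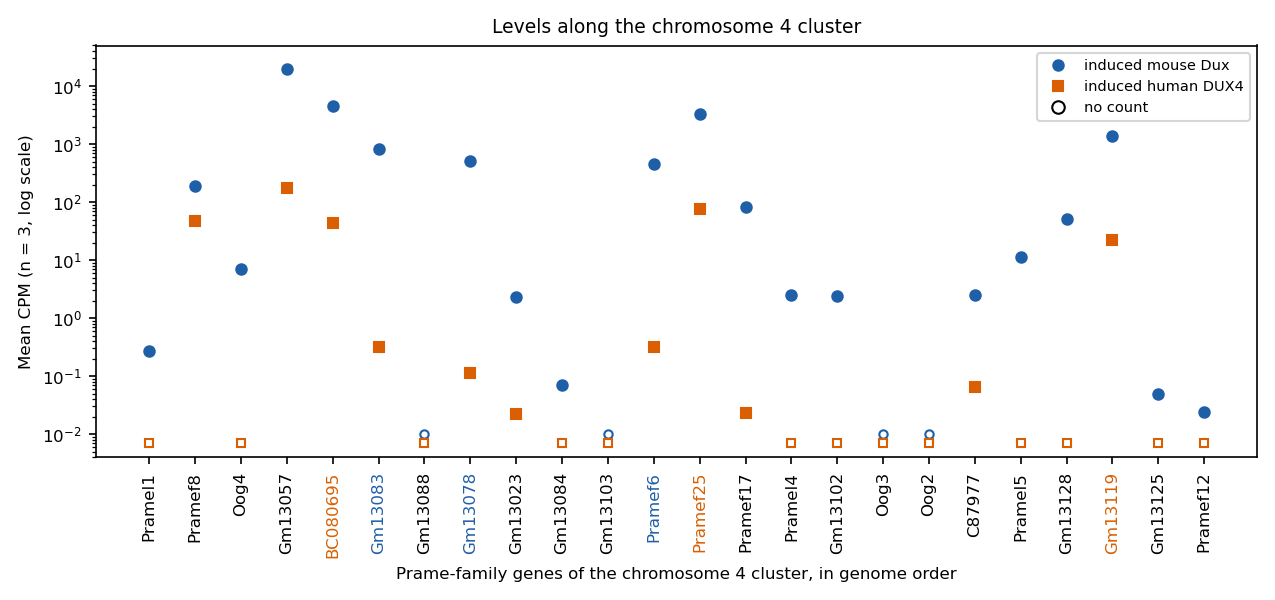
Mean CPM (log scale, n = 3) of the 24 Prame-family genes of the chromosome 4 cluster in genome order, with mouse Dux (blue circles) and human DUX4 (orange squares); open symbols at the bottom mark genes with no count, and coloured names mark members strongly raised by both factors (orange) or by mouse Dux only (blue). With mouse Dux 11 genes reached 10 CPM, and with human DUX4 5 did.

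Outside induced factor libraries the members were counted at a low level that followed their induced level. In uninduced mouse Dux, both luciferase and uninduced human DUX4 groups, the 6 members with 8 or more counts in every group (Pramef25, BC080695, Gm12794, Gm13119, A430089I19Rik and BC061212) stood at 0.00925% to 0.0276% of their induced mouse Dux level. For the 7 members strongly raised by mouse Dux only, the induced human DUX4 libraries stood between 0 and 0.0700%. Over the 10 members the Spearman correlation between the level in a group and the induced mouse Dux level was 0.91 in uninduced mouse Dux, 0.92 in uninduced human DUX4, 0.96 in uninduced luciferase, 0.99 in induced luciferase and 0.82 in induced human DUX4 libraries. The points share libraries and, for near-identical genes, reads. Libraries were sequenced in pools, and the sources used here do not say which libraries shared a pool. The part of reads assigned from 1 library to another in these low counts was not tested. Among 37 other genes with a mouse Dux log2 fold change of at least 8 and at least 100 CPM when induced, the median of the same percentage was 0.0227% to 0.0515% in the same 4 groups.

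**Figure D5:**
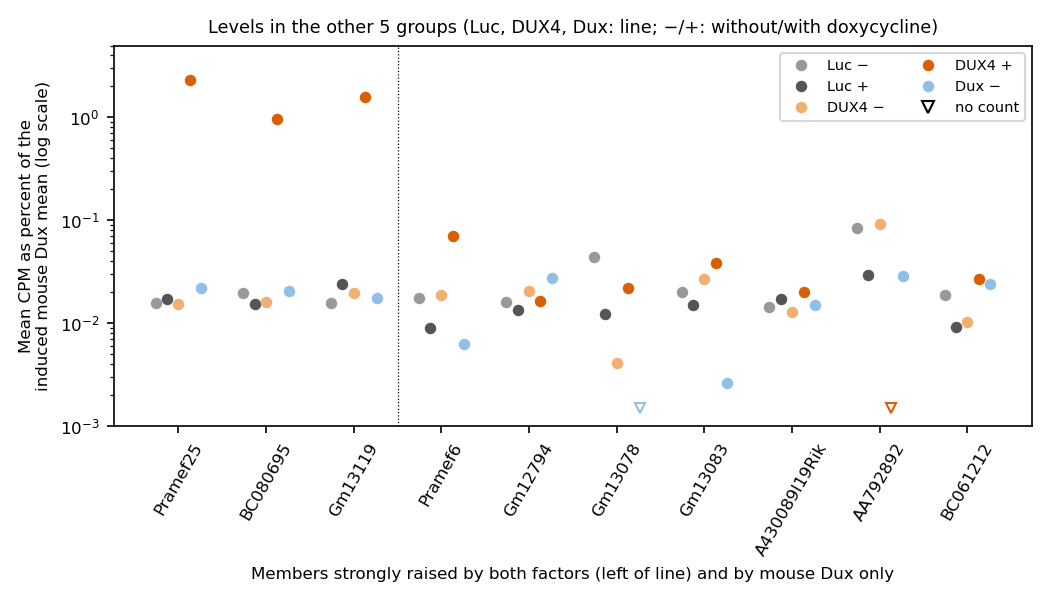
Mean CPM of each member in the 5 other groups as a percent of its induced mouse Dux mean (log scale); colours mark line and doxycycline, open triangles mark groups with no count, and the dotted line parts members strongly raised by both factors (left) from the rest. In the human DUX4 line with doxycycline Pramef25, BC080695 and Gm13119 stand at 0.954% to 2.30%, and all other points lie below 0.1%.

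Doxycycline in the luciferase line tested the inducer without a double-homeobox factor. In edgeR's quasi-likelihood test 0 of 10 members changed, where 31.1% of all genes tested did. DESeq2 also called 0, and 1 member had an unadjusted p under 0.05 in edgeR. That was Gm13078, with 11 counts uninduced and 3 induced (ratio 0.272, interval 0.0487 to 1.03, adjusted p = 0.0787), and its uninduced libraries (0.288, 0.244 and 0.138 CPM) all lay above the induced ones (0.0622, 0.0645 and 0.0596 CPM). Summed, the members stood at 3.97 ± 0.298 CPM uninduced and 3.60 ± 0.773 CPM induced. The best counted member, A430089I19Rik, had 1.38, 1.04 and 0.552 CPM uninduced and 1.74, 0.710 and 1.07 CPM induced, with overlapping ranges. When the luciferase groups were fitted alone 2 members, A430089I19Rik and BC080695, passed the filter on low counts and 8 did not, so a count of 0 says little for members such as Pramef6 (4 counts uninduced and 2 induced) and AA792892 (3 and 1). The standard errors of the log2 fold changes, 0.30 to 1.14, limit what could be detected at these counts.

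Levels before induction were compared between the lines. In edgeR 2 members were lower in the uninduced mouse Dux line than in the luciferase line, where 33.1% of all genes tested were called lower. Gm13078 had no count in the mouse Dux line and 11 in the luciferase line (adjusted p = 0.000971, lower in 3 of 3 libraries). Gm13083 had 1 and 8 counts (ratio 0.135, interval 0.00304 to 1.01, adjusted p = 0.0492). Between the human DUX4 and luciferase lines 1 member was lower in the former, against 37% of all genes. It was Gm13078, with 1 and 11 counts (ratio 0.0978, interval 0.00227 to 0.673, adjusted p = 0.00503). Between the mouse Dux and human DUX4 lines 1 member was lower in the former, against 33.3% of all genes (33.1% were higher): Gm13083, with 1 and 10 counts (interval of the ratio 0.00231 to 0.705, adjusted p = 0.0177). All of these calls rest on 11 counts or fewer in a group. When each pair of groups was fitted alone the genes did not pass the filter on low counts and 0 members were called. The Gm13083 call against the luciferase line was lost without uninduced mouse Dux library 1 or uninduced luciferase library 1 or 2, and that against the human DUX4 line without library 2 of either line.

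Of the 31 other family genes, 7 had no count in any library, 14 did not pass the filter on low counts and 17 were tested. All 17 rose strongly with mouse Dux, where 6.84% of all genes did. Most had so few uninduced reads that they passed the filter only through the induced group, and nothing is read from that count. The largest rises, beside Gm13057, were those of Gm13128 (no uninduced count, 51.3 ± 2.85 CPM induced, at least 765-fold higher), Pramef17 (1 count, 82.4 ± 4.95 CPM, a ratio of 3679 with an interval of 660 to 145337), B020004J07Rik (2 counts, 117 ± 7.91 CPM, 2608, 722 to 21540) and Gm3139 (1 count, 50.5 ± 2.11 CPM, 2260, 405 to 89312). In D5Ertd577e, Gm3259 and Pramel5, with 0 counts uninduced, the rise was at least 191-, 183- and 171-fold. None of these 7 genes had more than 2 counts over the induced human DUX4 libraries. For B020004J07Rik the responses differed by 14.3 in edgeR's interaction test (SE 2.63, adjusted p = 0.000129). That rests on 3 uninduced and 0 induced counts in the human DUX4 line. In the others, groups without counts left no usable standard error for a difference between the responses.

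With human DUX4 3 other family genes rose and 0 fell in edgeR, where 34.4% of all genes were called higher. They were Gm13057, Pramef8 and C87499. Pramef8, named here after its values were seen, differed from the rest of the family in being expressed in all groups: it had 35.3, 36.5 and 38.7 CPM in uninduced mouse Dux libraries and 51.4, 51.7 and 56.8 CPM in uninduced luciferase ones. It rose 5.12-fold with mouse Dux (log2 fold change 2.35, SE 0.0560, adjusted p = 1.26e-17) and from 30.8, 31.9 and 31.8 to 46.0, 47.4 and 47.2 CPM with human DUX4 (0.57, SE 0.0590, adjusted p = 4.70e-08), 3 of 3 libraries in each. C87499 had 0 counts uninduced and 6 induced (at least 2.02-fold higher, adjusted p = 0.0358), and its call was lost when any library of the comparison other than induced library 3 was left out. It passed the filter on low counts only through the induced mouse Dux group (424 counts), so nothing is read from its call. Genes at 10 CPM or more with human DUX4 were Gm13057, BC080695, Pramef25, Gm13119 and Pramef8, all in the chromosome 4 cluster, and 0 of the 8 family genes of the chromosome 5 cluster reached that level. With doxycycline in the luciferase line 1 of the 17 was called higher, against 14.7% of all genes. It was Gm10436, also named after its values were seen, from 1.33, 0.975 and 1.24 to 1.43, 2.32 and 1.79 CPM (0.64, SE 0.223, adjusted p = 0.0361). That call was lost without luciferase library 2 or 3 of either condition.

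The 8 genes listed as partners or targets of PRAME proteins, or linked to them, moved by small amounts beside the members with mouse Dux. Their log2 fold changes there were -1.10 to 0.93, against 11.24 to 15.92 for the members. With human DUX4 and in the luciferase line 1 of them, Uhrf1, fell strongly. In the luciferase line they ranged from -2.20 to 0.15 and the members from -1.75 to 0.65. Of 8 tested, 3 rose and 3 fell with mouse Dux, 2 rose and 5 fell with human DUX4, and 0 rose and 5 fell in the luciferase line. Of all genes tested 34.1% were called higher and 34.8% lower with mouse Dux, 34.4% and 33.1% with human DUX4, and 14.7% and 16.4% in the luciferase line. The median log2 fold changes were -0.11, -0.48 and -0.36, against -0.01, 0.00 and 0.00 over all genes tested. Uhrf1, a factor that keeps DNA methylation and on which Pramel7 acts, rose with mouse Dux (0.93, SE 0.0707, adjusted p = 7.25e-10) and fell with human DUX4 (-2.36) and in the luciferase line (-2.20). Ezh2, the Polycomb methyltransferase gene, likewise rose with mouse Dux (0.89) and fell with human DUX4 (-1.06) and with doxycycline in the luciferase line (-0.42). Rara, the retinoic acid receptor gene, fell with both factors (-1.10 and -0.73) and gave 0.15 in the luciferase line (adjusted p = 0.108). Among the ligase subunits, Cul2 was not called in any of the 3 responses, Rbx1 fell in all 3 (-0.25, -0.24 and -0.29), the elongin C gene Tceb1 rose with both factors (0.48 and 0.32) and fell in the luciferase line (-0.45), and the elongin B gene Tceb2 rose with human DUX4 (1.17) and was not called in the other responses. The DNA methyltransferase gene Dnmt1 fell in all 3 (-0.23, -0.72 and -0.55).

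The genes whose profiles over the 18 libraries were most like those of the leading member of each class are given as a description. These libraries include those that set the classes. Unlike levels of these genes with human DUX4 therefore follow from the choice, and nothing is read from them. Likeness was the root mean square difference of centred log2(CPM + 1), smaller meaning closer, with all other genes of the table compared. For BC080695 the closest were Gm13057 (0.38), Gm4312 (0.70), Gm11758 (0.80), Tmem92 (1.24) and the deubiquitinase gene Usp17la (1.26). Their mean levels in induced human DUX4 libraries were 178, 16.6, 14.6, 108 and 6.55 CPM. For A430089I19Rik the closest were Zscan4c (0.28), Zscan4d (0.29), Zscan4a (0.30), Zscan4f (0.30) and Zscan4b (0.35), zinc finger genes of the early embryo, with 1.55 to 3.71 CPM in induced human DUX4 libraries and 8767 to 18688 CPM in induced mouse Dux libraries.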

How the data were processed

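Polyadenylated RNA of 18 C2C12 cultures was measured, 3 in each of 6 groups taken with the replicate numbers from the labels. The deposited values were raw whole-number read counts per gene. CASAVA, TopHat2 2.0.12, Bowtie2 2.2.3 and the build mm10 were used, per the submitters' processing notes. The sources used here do not give the counting program, its annotation or its strand setting. Reads of copies and of overlapping genes are therefore uncertain.

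Library sizes were scaled by TMM, genes were kept by filterByExpr (13602 of 24028), and a single model with 6 group means took in all libraries, with the two-sided quasi-likelihood test of edgeR 4.0.16 (limma 3.58.1, R 4.3.3), with Benjamini-Hochberg adjustment over all genes tested. A call was an adjusted p under 0.05 and a strong change also an absolute log2 fold change of at least 2. CPM values are means ± SD of 3 libraries, which measure the spread between cultures of 1 clone. Against groups with no count a fold is a lower bound computed with 3 counts (the floor) for that whole group, and with 1 to 3 counts the ratio has an exact 95% (Clopper-Pearson) interval. The fit was tested on simulated counts.

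The members and lists were chosen with earlier results of these data known. Named genes were all members, the other family genes strongly changed in any response (at most 8 by size each), up to 8 partner genes and the 5 genes most like the leading member of each class. Family genes were taken by symbol, RefSeq synonym or list; a search by protein sequence was not run. Coding and promoter identities came from global alignments in Biopython 1.88, transcripts and positions from GENCODE vM21 (Gm13057 by name, since the table pairs it with another identifier), neighbours and promoter windows from RefSeq GRCm38.p6; 9 of 10 members and 25 of 31 other family genes had a window. Other normalizations, no filter, DESeq2 1.42.0, a replicate block, fits of only the groups compared and leaving out each library were tried. In the mouse Dux line libraries of the same number deviated together (correlations of 0.20 to 0.40 over 3 pairs, each induced library closest to its own number), so the numbers were taken to pair those cultures. Numbers 2 and 3 were hardly told apart. Induced library 2 gave 0.219 with uninduced library 2 and 0.212 with 3, and induced library 3 gave 0.202 with 3 and 0.187 with 2. The blocked fit changed no member call in that response. Figures used matplotlib 3.10.9.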

Additional observations from a re-analysis of the deposited data

Results flagged for a closer look

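In 3 other Prame-family genes counted in all 4 groups of the factor lines, the response to mouse Dux differed from that to human DUX4 in edgeR's interaction test, where 32.9% of all genes tested were called higher in that difference. The difference of the log2 fold changes was 6.32 in Gm13057 (SE 0.404, adjusted p = 6.06e-11), 4.82 in Gm10436 (SE 0.709, adjusted p = 6.79e-06) and 1.78 in Pramef8 (SE 0.0810, adjusted p = 3.98e-13). Gm10436 rose from 0.597 ± 0.0968 to 26.6 ± 1.96 CPM with mouse Dux and stood at 0.199 ± 0.106 and 0.313 ± 0.0975 CPM in the human DUX4 line. The lines differ by clone as well as by factor, and the cause was not tested.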

How the results depend on the processing

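The 10 members stayed strongly raised by mouse Dux under every alternative run, and all 120 recomputed log2 values kept their direction and side of the threshold. For human DUX4 101 of 114 did, 11 lost a call (Pramef6 and BC061212) and 2 gained one (Gm13078 and A430089I19Rik), in genes with 61 counts or fewer per group. The counts of members raised strongly by human DUX4 and by both factors were 3 to 5 when each library was left out, with 5 only without uninduced library 1. In the human DUX4 and luciferase lines the replicate numbers did not pair the cultures: same-numbered libraries correlated at -0.04 to 0.05, 0 of 6 pairs exceeded 0.1, and 3 of 6 induced libraries correlated best with their own number. Between uninduced lines 0 of 9 pairs exceeded 0.1. With the replicate block 10, 3 and 3 members were strongly raised by mouse Dux, human DUX4 and both, 0 changed in the luciferase line, and 1 member in place of 2 differed between the uninduced mouse Dux and luciferase lines. That last count was 1 with library size alone, 0 with only the groups compared (where the genes failed the filter) and 1 to 2 when each library was left out. Members differing between the human DUX4 and luciferase lines went from 1 to 0 with only the groups compared. Between the mouse Dux and human DUX4 lines the count went from 1 to 0 with only the groups compared and to 2 with DESeq2, and it was 0 to 1 when each library was left out. The 1 other family gene higher in the luciferase line became 0 with no filter, with the replicate block and with DESeq2, and 0 to 1 when each library was left out. Apart from the filter and leaving out libraries, the cause was not tested. Library size alone moved the median of all genes by -0.24 in the mouse Dux response. Counts under about 10 per group limit every comparison outside the induced libraries.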

Other observations

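Before induction 2 other Prame-family genes counted in all lines differed between them in edgeR. Pramef8 was lower in the mouse Dux line (36.9 ± 1.74 CPM) and in the human DUX4 line (31.5 ± 0.638 CPM) than in the luciferase line (53.3 ± 3.02 CPM), at log2 differences of -0.53 (adjusted p = 1.20e-07) and -0.76 (adjusted p = 5.35e-10), in 3 of 3 libraries each. Gm10436 was lower in both as well, at 0.597 ± 0.0968 and 0.199 ± 0.106 CPM against 1.18 ± 0.184 CPM (-0.96, adjusted p = 0.00739, and -2.51, adjusted p = 6.62e-06). Gm13023 had 0 and 1 counts in the mouse Dux and human DUX4 lines and 8 in the luciferase line (adjusted p = 0.00467 and 0.0259), and C87977 had 0 in the human DUX4 line and 6 in the luciferase line (adjusted p = 0.0106). Both passed the filter on low counts only through the induced mouse Dux group (98 and 104 counts), so nothing is read from their calls. With them, 3 of 17 tested family genes were lower in the mouse Dux line than in the luciferase line, where 33.1% of all genes were called lower. In the human DUX4 line 4 of 17 were lower than in the luciferase line, against 37% of all genes. Between the mouse Dux and human DUX4 lines 2 of 17 were higher in the former, where 33.1% of all genes were: Gm10436 (27 and 9 counts, log2 difference 1.55, adjusted p = 0.00494) and Pramef8 (0.23, adjusted p = 0.00247). These genes were named after their values were seen, and line and clone cannot be told apart.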
